A study of Mus musculus with 20 samples.

Results

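The genes described here are 41 listed genes of G2 and M phase, the last stages of the cell cycle, among 46318 genes in the files. The list is one of gene names, drawn up with earlier results of these data known, and comprises mitotic cyclins and kinases, spindle checkpoint and kinetochore genes, kinesins, condensin subunits and cytokinesis genes. All 41 were matched by GeneID, and all 41 were among the 13307 genes with enough counts to be tested, so no member was lost to the filter on low counts. Bone marrow cells of C57BL/6 female mice had been grown into macrophages with recombinant M-CSF, the macrophage growth factor, which all groups received. These cells were then kept for 24 h with DMSO (the solvent control), with DSHN at 50 µM, with GW3965 at 1 µM, or with both compounds at those doses (DSHNplusGW, called the combination here). Each group had 5 biological replicates, which makes 20 libraries of polyadenylated RNA. GW3965 activates LXR, a nuclear receptor for oxysterols, and DSHN is described in the series as an activator of NR0B2, which is held to inhibit LXR. No genotype other than the C57BL/6 strain was given, and the labels do not say whether the replicates came from separate mice, so p-values measure the spread between these cultures.

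As background, cyclin B with its kinase CDK1 drives the entry into mitosis, and the aurora and polo-like kinases, the spindle checkpoint and the kinetochore then govern how chromosomes attach to the spindle. The anaphase-promoting complex ends mitosis by marking securin and cyclin B for destruction. The genes for these proteins are transcribed mainly in G2 and M phase, so their summed RNA in a culture depends on how many cells are dividing, and M-CSF is a mitogen for macrophages.

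Library totals ran from 16855029 to 23796561 counts, and the 41 members held 0.451% to 0.627% of them. The lowest member count in any library was 203 (Cdc25c, in the combination). All 12 macrophage markers were detected in every group, with a summed level of 19246 to 23405 CPM (counts scaled to a common library size by TMM factors) over the 20 libraries. Markers of erythroid cells summed to at most 0.376 CPM with 5 of 8 genes at 0 in all 20 libraries. Those of progenitors summed to at most 3.18 CPM with Ctsg at 0 throughout, and those of dendritic cells to at most 2.39 CPM. None of the 8 dendritic markers was at 0 throughout, though Ccr7 had no count with DMSO or DSHN. The 10 fibroblast and stromal markers, led by Col1a1, had sums of 3388 to 4129 CPM in DMSO cultures, 3446 to 4235 in DSHN cultures, 3575 to 4573 in GW3965 cultures and 2716 to 3277 in the combination. None was at 0 in all 20 libraries, but Lum had no count with DMSO and at most 4 in any library. The 9 neutrophil markers, nearly all Mmp8, had sums of 25.8 to 32.5 CPM in DMSO cultures, 54.7 to 63.4 in DSHN cultures, 21.2 to 27.5 in GW3965 cultures and 41.4 to 45.5 in the combination. None was at 0 in all 20 libraries, but S100a9, Camp, Retnlg and Ly6g had at most 1 count in any library. The combination libraries differed from the other 15 in a way that touches every result on them: their log2 levels fell with exon length, with slopes of -0.124 to -0.0943 per doubling over all tested genes, against 0.0057 to 0.063 in the others. Mitochondrial rRNA and tRNA took 0.201% to 0.246% of their counts and 0.114% to 0.152% in the others. What lies behind the length trend was not tested, and counts of members called in the combination are given both as counted and with the trend removed (the exon length correction). Single values are as counted unless stated.

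The promoters are shown first because genes of this phase are known for a common promoter grammar: CCAAT boxes, bound by NF-Y, and a cell cycle genes homology region, bound by the MuvB complexes that repress or activate these genes. RefSeq promoters of build GRCm38.p6, each from 250 bases before to 50 bases after a start, were found for 32 of 41 members (34 promoters). Spc24, Tpx2, Cdc25c, Kif20a, Smc4, Foxm1, Aurkb, Incenp and Ccna2 had no entry. The CCAAT box, searched as those 5 letters on either strand, stood in 26 of the 34 (76.5%), against 37.5% of the 13248 promoters of tested genes and 37.4% of all 32851. At least 2 of them stood in 17 (50%), against 13.9% and 11.7%. The letters TTTGAA or TTCGAA, on either strand, stood in 27 (79.4%), against 14.2% and 19.2%, and both kinds of motif in 24 (70.6%), against 5.83% and 7.52%. TTCGAA reads the same on both strands and was counted once, and neighbouring matches may share bases. These are matches of letters, not measured sites. Nuf2, Nusap1, Mad2l1, Pttg1 and Birc5 had neither kind of motif in this window. Printed here, 5′ to 3′ with the matches of either strand in capitals, are promoters of 6 genes whose levels are described below: Top2a, Cdk1, Ccnb2 and Bub1, which hold both kinds of match, and Birc5 and Pttg1, which hold none. Of the 5 members with neither kind, Nuf2, Nusap1, Mad2l1 and Birc5 fell with GW3965 and Pttg1 rose. Ccnb2 holds both kinds and was not called with GW3965. In the combination against GW3965, members with both kinds were called in both directions, among them Ube2c and Cenpa higher and Top2a and Bub1b lower. Of the 5 with neither kind, Birc5, Pttg1, Nuf2 and Mad2l1 were higher there and Nusap1 was not called. A relation between matches and response was not tested.
Top2a, chr11:99024140-99024439, minus strand: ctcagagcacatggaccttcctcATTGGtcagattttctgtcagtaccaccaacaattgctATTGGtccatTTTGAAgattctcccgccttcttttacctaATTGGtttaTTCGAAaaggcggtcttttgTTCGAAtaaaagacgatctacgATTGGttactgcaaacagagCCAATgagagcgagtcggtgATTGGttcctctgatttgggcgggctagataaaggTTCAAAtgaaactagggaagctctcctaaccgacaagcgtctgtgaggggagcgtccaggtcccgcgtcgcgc
Cdk1, chr10:69352863-69353162, minus strand: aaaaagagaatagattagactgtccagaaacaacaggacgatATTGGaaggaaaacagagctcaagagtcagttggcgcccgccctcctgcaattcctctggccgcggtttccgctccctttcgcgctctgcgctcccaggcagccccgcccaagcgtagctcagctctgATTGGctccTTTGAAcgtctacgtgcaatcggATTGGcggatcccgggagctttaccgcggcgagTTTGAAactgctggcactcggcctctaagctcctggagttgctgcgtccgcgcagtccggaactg
Ccnb2, chr9:70421505-70421804, minus strand: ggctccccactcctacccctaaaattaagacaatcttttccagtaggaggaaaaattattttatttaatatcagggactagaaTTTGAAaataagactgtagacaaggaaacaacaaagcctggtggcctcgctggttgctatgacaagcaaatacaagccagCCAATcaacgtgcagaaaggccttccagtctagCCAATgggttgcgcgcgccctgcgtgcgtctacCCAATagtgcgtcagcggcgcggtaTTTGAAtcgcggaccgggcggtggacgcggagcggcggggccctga
Bub1, chr2:127831810-127832109, minus strand: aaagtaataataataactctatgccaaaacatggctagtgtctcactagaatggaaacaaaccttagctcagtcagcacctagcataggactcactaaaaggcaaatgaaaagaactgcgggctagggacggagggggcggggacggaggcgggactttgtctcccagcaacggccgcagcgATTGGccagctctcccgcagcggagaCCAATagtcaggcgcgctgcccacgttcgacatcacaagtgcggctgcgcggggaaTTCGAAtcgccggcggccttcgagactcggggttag
Birc5, chr11:117848987-117849286, plus strand: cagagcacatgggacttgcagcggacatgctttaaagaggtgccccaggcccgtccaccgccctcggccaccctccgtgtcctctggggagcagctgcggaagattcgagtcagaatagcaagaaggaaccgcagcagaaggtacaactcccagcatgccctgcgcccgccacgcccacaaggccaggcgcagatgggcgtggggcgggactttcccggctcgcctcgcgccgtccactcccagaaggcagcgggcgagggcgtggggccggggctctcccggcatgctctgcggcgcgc
Pttg1, chr11:43425932-43426231, minus strand: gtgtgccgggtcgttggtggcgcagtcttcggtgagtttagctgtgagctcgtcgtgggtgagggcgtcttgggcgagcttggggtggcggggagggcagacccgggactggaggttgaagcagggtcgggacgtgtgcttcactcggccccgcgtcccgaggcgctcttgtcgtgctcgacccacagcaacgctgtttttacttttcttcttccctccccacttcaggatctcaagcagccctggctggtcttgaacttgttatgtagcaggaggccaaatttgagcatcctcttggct

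With GW3965, most of the mitosis genes fell. Of 41, 38 fell against DMSO, Pttg1 rose, and Ccnb2 and Cenpa did not pass the test (edgeR quasi-likelihood, Benjamini-Hochberg adjusted p under 0.05). Of all tested genes, 23.0% were called lower and 23.6% higher. The members' median log2 fold change was -0.32 and their range -0.49 to 0.39, beside a median of 0.01 over all tested genes. In 35 members all 5 GW3965 libraries lay below all 5 DMSO libraries, which held for 15.5% of tested genes, and the members that overlapped were Ccnb2, Cenpa, Nusap1, Plk1, Pttg1 and Ube2c. The falls were shallow, the deepest being Bub1 at 1.40-fold. The summed level of the members was 6086 ± 86.1 CPM (SD, n = 5) with DMSO and 4928 ± 216 with GW3965, and the ranges of 5971 to 6173 and 4734 to 5261 did not overlap. Fewer dividing cells and less of these RNAs per dividing cell cannot be told apart in such bulk samples. The fibroblast and stromal sum, given above, overlapped between these 2 groups, and 1 of its 8 tested markers was called lower and 1 higher. Of 3 progenitor markers tested, Cd34 (-0.74) and Gata2 (-1.27) fell with GW3965 and the other was not called (0.03). Both neutrophil markers tested fell, S100a8 by 0.93 and Mmp8 by 0.24 on the log2 scale. Cd34 had only 10 to 32 counts per library with DMSO and 9 to 17 with GW3965. Gata2 had 6 to 22 and 3 to 7, and S100a8 had 8 to 29 and 4 to 13. The progenitor sums were 1.47 to 3.18 CPM with DMSO and 1.57 to 1.75 with GW3965, and the sums of both lists overlapped between the groups. The part of these cells in the members' fall was not tested. With scaling by total counts only, calls over all genes split into 4000 lower and 2267 higher in place of 3058 and 3136, while the members stayed at 38 and 1.

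With DSHN alone, few of these genes passed the test. Against DMSO, 5 fell (Anln, Bub1, Smc2, Top2a and Kif4) and 4 rose (Ccnb2, Cenpa, Nusap1 and Pttg1), beside 14.8% of tested genes lower and 14.1% higher. The members' shares were no larger than that background. The median was -0.04 and the range -0.17 to 0.19 on the log2 scale, and the 95% intervals of the 32 members not called lay within -0.31 and 0.17. The number called lower fell to 2 without DMSO replicate 1, DSHN replicate 2 or DSHN replicate 3 and to 3 without DMSO replicate 2 or 5. The number called higher fell to 2 without DMSO replicate 5, DSHN replicate 1 or DSHN replicate 3. The GW3965 and DSHN comparisons share their 5 DMSO libraries.

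In the combination, 27 members were lower and 5 higher than with DMSO, beside 32.9% and 31.9% of tested genes. With the exon length trend removed the counts were 30 and 5, beside 28.2% and 30.2%. The summed level was 4833 ± 121 CPM (SD, n = 5; 4704 to 4965), which overlapped that of GW3965 alone and lay below all DMSO libraries. The members' changes spread more widely than with GW3965 alone, from -0.94 (Kif20a) to 0.71 (Pttg1) on the log2 scale. Birc5, Cenpa and Pttg1 were higher under both fits, Ccnb2 and Ube2c only as counted, and Cdk1 and Smc4 only with the trend removed. The stromal markers also fell here, in 7 of 8 tested (median log2 change -0.36), and in 5 of 8 with the trend removed (median -0.28). Of the 12 macrophage markers, 6 were lower and 4 higher than with DMSO as counted, and 8 and 2 with the trend removed. Against GW3965 they were 6 and 4 as counted, beside 29.5% and 28.3% of tested genes. With the trend removed they were 10 and 0, beside 23.5% and 23.8%. The part of either list in the members' change was not tested.

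**Figure D1:**
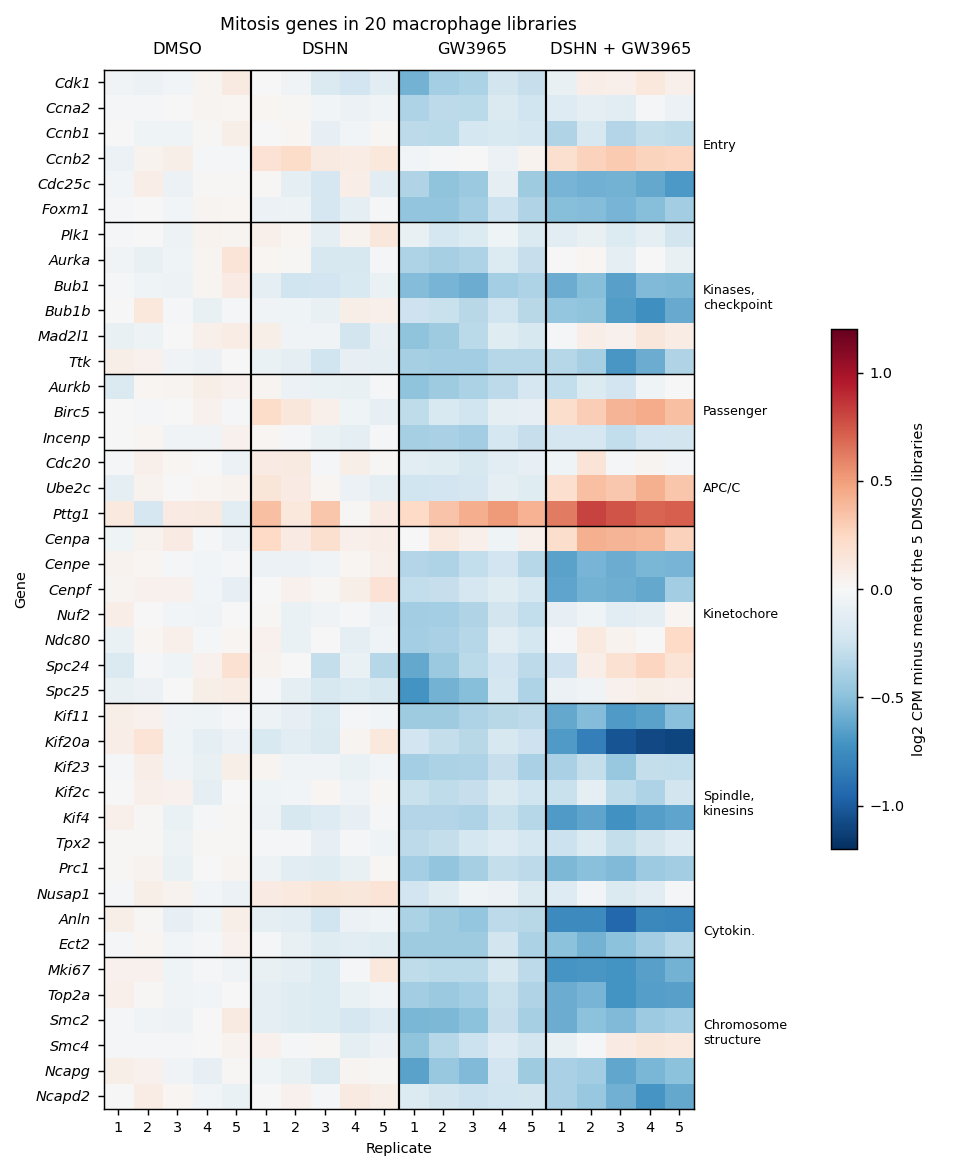
Heatmap of log2 CPM minus the mean of the 5 DMSO libraries for the 41 mitosis genes (vertical axis, grouped by role) in 20 libraries (horizontal axis, replicates 1 to 5 of each treatment). The 5 GW3965 libraries are below the DMSO mean for nearly all genes except Pttg1, Ccnb2 and Cenpa, and the combination libraries hold both the lowest values (Kif20a, Anln) and the highest (Pttg1).

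**Figure D2:**
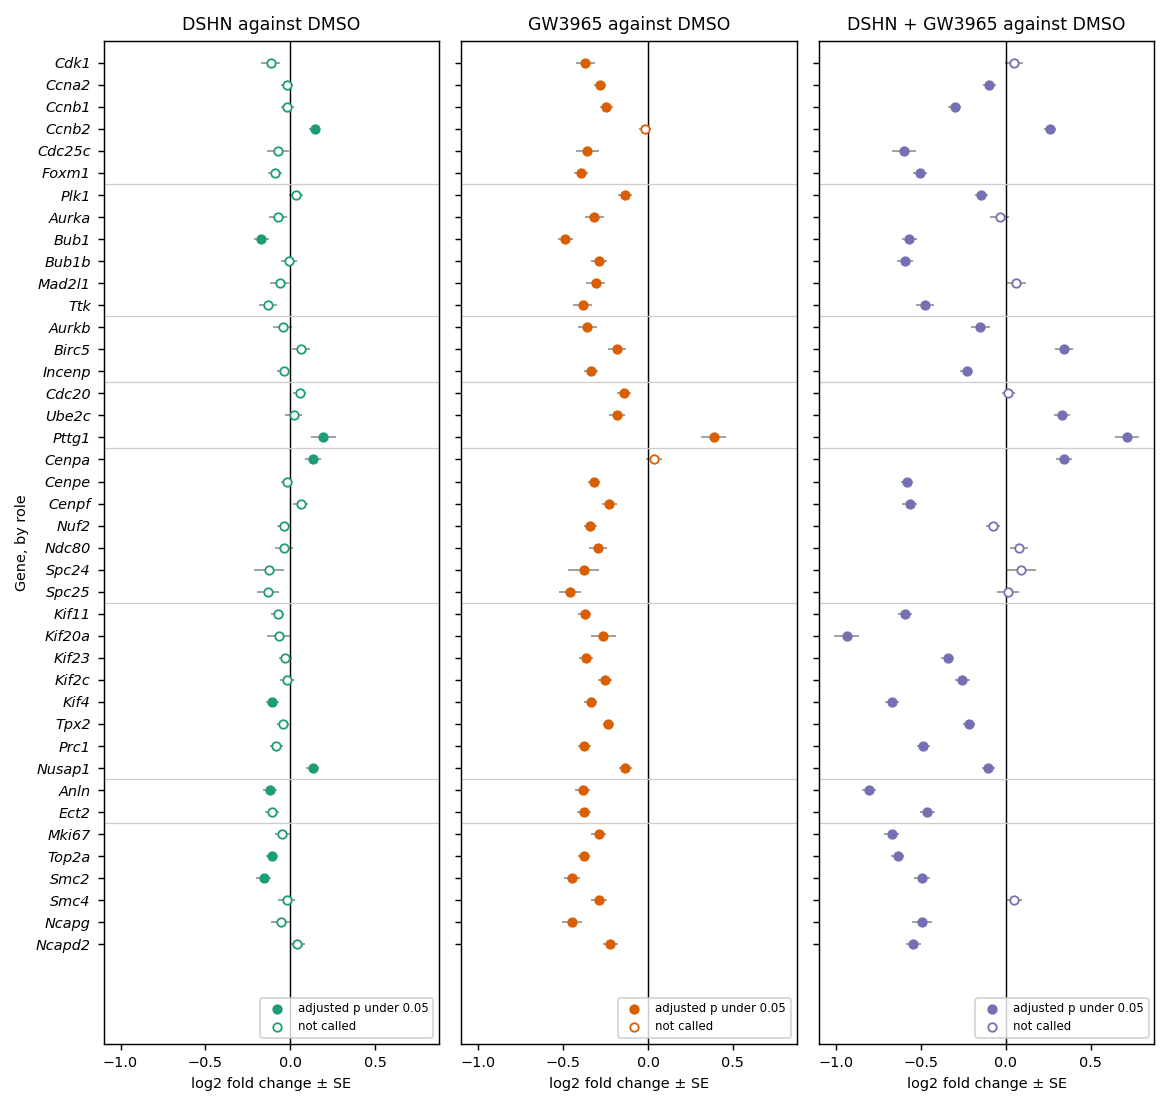
The log2 fold change of each of the 41 genes (points, horizontal axis) with its SE (bars) against DMSO, in 3 panels for DSHN, GW3965 and the combination; filled points have an adjusted p under 0.05. The middle panel holds 38 filled points left of 0 and 1 right of it, the left panel 5 and 4, and the right panel 27 and 5.

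Among the 6 genes of mitotic entry, 5 fell with GW3965. Foxm1 (GeneID 14235, chromosome 6, 128339957 to 128352849 in GRCm39, plus strand), the transcription factor that activates many G2 and M genes, stood at 89.3, 90.6, 88.9, 92.5 and 92.5 CPM in DMSO replicates 1 to 5 and at 65.2, 65.3, 67.8, 75.9 and 70.6 CPM with GW3965. With DSHN it stood at 86.4, 86.9, 79.1, 84.0 and 89.6 CPM, and in the combination at 63.5, 63.2, 61.5, 63.8 and 67.8 CPM. All GW3965 libraries were below all DMSO and DSHN libraries, and the combination overlapped GW3965. The Foxm1 log2 change was -0.40 ± 0.04 (SE; adjusted p = 1.36e-08) with GW3965 and -0.51 ± 0.04 (6.14e-11) in the combination, the second being -0.41 with the length trend removed. Ccnb2 (GeneID 12442, chromosome 9, 70314971 to 70328836, minus strand), a B-type cyclin that partners CDK1, behaved otherwise. It was measured at 93.3, 100.5, 102.4, 96.3 and 96.5 CPM with DMSO and at 95.3, 96.8, 97.6, 92.8 and 100.5 CPM with GW3965, which overlapped. Ccnb2 was at 110.2, 113.8, 105.4, 103.9 and 106.4 CPM with DSHN and at 111.5, 118.2, 121.3, 117.4 and 117.0 CPM in the combination. All DSHN and all combination libraries lay above all DMSO libraries, with a log2 change of 0.14 ± 0.04 (adjusted p = 2.88e-03) for DSHN. The Ccnb2 rise of 0.28 ± 0.04 in the combination against GW3965 (1.98e-07) was 0.06 with the length trend removed and no longer called. Cdk1, the kinase itself, fell by 0.37 with GW3965, and the other members of this set, Ccna2, Ccnb1 and Cdc25c (the phosphatase that activates CDK1), fell by 0.28, 0.24 and 0.36 on the log2 scale.

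All 6 kinase and checkpoint genes fell with GW3965. Bub1 (GeneID 12235, chromosome 2, 127642117 to 127673790, minus strand), a checkpoint kinase at the kinetochore whose promoter is printed above, was the member with the deepest fall. Its levels were 111.0, 107.6, 107.3, 114.3 and 119.4 CPM with DMSO, 102.9, 94.7, 95.1, 98.4 and 105.6 with DSHN, 78.2, 76.0, 74.2, 84.4 and 86.5 with GW3965, and 74.2, 78.4, 71.0, 77.7 and 76.8 in the combination. DMSO, DSHN and GW3965 did not overlap each other, and the combination overlapped GW3965. The log2 change of Bub1 was -0.49 ± 0.04 (adjusted p = 1.41e-09) with GW3965 and -0.17 ± 0.04 (4.17e-03) with DSHN. Mad2l1 (GeneID 56150, chromosome 6, 66512205 to 66518091, plus strand) encodes MAD2, the checkpoint protein that restrains CDC20. Its levels were 97.7, 99.7, 103.8, 108.0 and 110.4 CPM with DMSO, 109.3, 100.6, 100.9, 89.3 and 96.9 with DSHN, 74.3, 77.4, 83.1, 93.7 and 90.8 with GW3965, and 101.9, 109.6, 107.3, 113.9 and 110.6 in the combination. GW3965 libraries were all below DMSO and below the combination, while DMSO and the combination overlapped. Mad2l1 changed by -0.31 ± 0.06 with GW3965 (6.41e-05) and by 0.37 ± 0.06 in the combination against GW3965 (3.35e-06), the second being 0.23 and still called with the length trend removed. Bub1b, which encodes the checkpoint protein BUBR1, fell by 0.29 with GW3965 and further, by 0.30 (0.28 with the trend removed), when DSHN was added to it. The kinases Plk1, Aurka and Ttk fell by 0.14, 0.32 and 0.39 with GW3965.

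The 3 measured genes of the chromosomal passenger complex, which corrects faulty attachments, all fell with GW3965 and all rose in the combination against GW3965. Incenp (GeneID 16319, chromosome 19, 9849659 to 9876853, minus strand), its scaffold, was at 218.3, 220.3, 211.7, 211.1 and 225.4 CPM with DMSO, 220.8, 214.8, 205.5, 200.3 and 215.1 with DSHN, 164.7, 165.7, 162.5, 187.8 and 179.7 with GW3965, and 189.5, 188.4, 176.6, 185.6 and 186.0 in the combination. Both groups with GW3965 were below all DMSO libraries and overlapped each other. The Incenp change was -0.34 ± 0.04 with GW3965 (adjusted p = 7e-08) and 0.11 ± 0.04 in the combination against GW3965 (0.022), the second being 0.09 and still called with the length trend removed. Birc5 (GeneID 11799, chromosome 11, 117740063 to 117746569, plus strand) encodes survivin, the subunit that brings the complex to centromeres. Its levels were 81.5, 80.5, 81.2, 84.3 and 80.0 CPM with DMSO, 95.01, 89.6, 85.1, 78.8 and 75.9 with DSHN, 65.9, 71.7, 69.1, 75.2 and 76.1 with GW3965, and 94.3, 100, 108.0, 111.1 and 104.6 in the combination. Birc5 was lower in every GW3965 library than in any DMSO library, and higher in every combination library than in either. It fell by 0.18 with GW3965 (5.73e-03) and rose by 0.53 ± 0.05 in the combination against GW3965 (4.85e-09), and that rise was also 0.53 with the length trend removed. Aurkb, the kinase of the complex, fell by 0.36 with GW3965 and rose by 0.21 in the combination against it, a rise that was 0.08 and not called with the trend removed.

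Genes of the anaphase-promoting complex and its substrate securin did not move together. Pttg1 (GeneID 30939, chromosome 11, 43311071 to 43318290, minus strand), which encodes securin, the inhibitor of the protease that separates sister chromatids, had the lowest level per length of all members in DMSO (5.68 ± 0.57 RPKM, SD, n = 5). It was at 17.6, 14.1, 17.4, 17.4 and 14.9 CPM with DMSO, 20.8, 17.7, 20.4, 16.4 and 17.3 with DSHN, 19.1, 20.6, 21.95, 23.0 and 21.7 with GW3965, and 24.9, 28.5, 27.4, 26.3 and 26.7 in the combination. Every GW3965 library was above every DMSO library, and every combination library above all 15 others. Pttg1 rose by 0.39 ± 0.07 with GW3965 (adjusted p = 8.72e-05), by 0.71 ± 0.07 in the combination against DMSO (2.23e-09; 0.68 with the trend removed) and by 0.19 ± 0.07 with DSHN (0.0495). Ube2c (GeneID 68612, chromosome 2, 164611849 to 164614822, plus strand), the ubiquitin-conjugating enzyme of the complex, had the shortest exon length of the members, 931 bases. Its levels were 100.8, 112.2, 109.3, 111.2 and 112.6 CPM with DMSO, 120.5, 116.6, 110.8, 103.9 and 100.9 with DSHN, 92.3, 93.2, 94.9, 101.6 and 98.7 with GW3965, and 125.5, 140.5, 136.3, 147.0 and 137.1 in the combination. The combination was above every other library, and GW3965 replicate 4 overlapped DMSO replicate 1. The Ube2c change of 0.51 ± 0.05 in the combination against GW3965 (1.45e-09) was 0.20 and still called with the length trend removed, and its change of 0.33 against DMSO (9.94e-07) became -0.03 and was not called. Cdc20, the activator of the complex, fell by 0.14 with GW3965.

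Of 7 kinetochore and centromere genes, 6 fell with GW3965, all but Cenpa, the centromeric histone H3 variant. Cenpe (GeneID 229841, chromosome 3, 134918324 to 134979301, plus strand), a kinesin that carries chromosomes to the spindle equator, was at 184.8, 181.8, 178.0, 175.3 and 176.4 CPM with DMSO, 170.9, 170.6, 173.9, 181.8 and 187.0 with DSHN, 140.4, 138.6, 146.5, 152.4 and 141.1 with GW3965, and 115.2, 121.6, 118.9, 122.4 and 121.9 in the combination. GW3965 lay below DMSO and DSHN, and the combination below GW3965, with no overlap. Cenpe changed by -0.32 ± 0.03 with GW3965 (adjusted p = 1.85e-08) and by -0.26 ± 0.03 in the combination against GW3965 (3.66e-07), the second becoming -0.04 and not called with the trend removed. Cenpf (GeneID 108000, chromosome 1, 189372803 to 189420302, minus strand), a large kinetochore protein, had the longest exon length, 11365 bases. Its levels were 158.1, 160.2, 160.2, 150.8 and 143.9 CPM with DMSO, 153.7, 160.4, 155.8, 162.3 and 174.8 with DSHN, 125.5, 127.9, 134.6, 139.4 and 133.2 with GW3965, and 99.7, 104.1, 103.0, 100.8 and 116.0 in the combination. The order of the groups was that of Cenpe, again with no overlap between GW3965, the combination and the others. Cenpf fell by 0.23 with GW3965 (1.08e-04), and its change of -0.34 in the combination against GW3965 (3.89e-07) became -0.07 and was not called. The 4 subunits of the NDC80 complex, the microtubule anchor of the kinetochore, fell with GW3965 by 0.29 (Ndc80), 0.34 (Nuf2), 0.38 (Spc24) and 0.46 (Spc25). All 4 rose in the combination against GW3965, by 0.37, 0.27, 0.47 and 0.47 as counted and by 0.25, 0.18, 0.26 and 0.35 with the trend removed. That these 4 are read as a set was decided after their values were seen.

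All 8 spindle and kinesin genes fell with GW3965, and all 8 were lower in the combination than with DMSO. Prc1 (GeneID 233406, chromosome 7, 79944024 to 79966007, plus strand), which bundles microtubules of the spindle midzone, was at 187.8, 192.4, 176.7, 185.4 and 191.0 CPM with DMSO, 179.2, 170.1, 168.4, 175.3 and 187.8 with DSHN, 140.8, 134.0, 141.7, 153.5 and 150.1 with GW3965, and 128.7, 131.7, 129.0, 137.6 and 139.9 in the combination. DMSO and DSHN overlapped, as did GW3965 and the combination, and the pairs did not. The Prc1 change was -0.37 ± 0.04 with GW3965 (adjusted p = 1.49e-08). Kif20a (GeneID 19348), a kinesin of the midzone, needed in cytokinesis, was at 39.6, 41.9, 36.2, 34.5 and 35.7 CPM with DMSO, 33.0, 34.3, 33.3, 38.2 and 40.9 with DSHN, 32.0, 30.7, 29.8, 32.7 and 31.6 with GW3965, and 23.4, 21.3, 18.3, 17.7 and 17.5 in the combination. Every combination library was below every other library, and GW3965 lay below DMSO and DSHN. Kif20a fell by 0.94 ± 0.08 (1.91-fold) in the combination against DMSO (4.15e-11) and by 0.67 ± 0.08 against GW3965 (3.92e-08). With the length trend removed it fell by 0.88 and 0.63. Of its exon bases 66.4% also lie in exons of Brd8 or Cdc23 on the other strand, and counting did not use strand. Reads that also overlapped an exon of those genes were left out, so Kif20a was counted from fewer bases than its exon length. The exon length correction used the full length. The part of this overlap in its change was not tested. Kif11, Kif23, Kif2c and Kif4 are motor proteins that separate the spindle poles, bundle the midzone, shorten microtubules and act on chromosome arms. They fell by 0.37, 0.36, 0.25 and 0.34 with GW3965. The spindle assembly factor Tpx2 fell by 0.23, and Nusap1, a microtubule binding protein, by 0.13.

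Both cytokinesis genes fell with GW3965. Anln (GeneID 68743, chromosome 9, 22242510 to 22302132, minus strand) encodes anillin, the scaffold of the contractile ring. Its levels were 206.9, 198.9, 184.3, 190.5 and 206.8 CPM with DMSO, 181.6, 181.1, 167.5, 187.4 and 190.7 with DSHN, 151.3, 146.6, 142.7, 159.1 and 156.7 with GW3965, and 116.2, 116.5, 102.8, 115.3 and 114.6 in the combination. GW3965 was below DMSO and DSHN, and the combination below GW3965, with no overlap. The Anln change was -0.38 ± 0.04 with GW3965 (adjusted p = 4.25e-08) and -0.42 ± 0.04 in the combination against GW3965 (9.35e-09), the second being -0.19 and still called with the length trend removed. Ect2, the exchange factor that activates RhoA at the ring, fell by 0.38 with GW3965.

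All 6 genes of chromosome structure fell with GW3965. Top2a (GeneID 21973, chromosome 11, 98883773 to 98915037, minus strand), the topoisomerase that untangles sister chromatids, had the highest level per length of the members in DMSO (137.9 ± 3.8 RPKM, SD, n = 5), followed by Ube2c (117.3 ± 5.25) and Mki67 (79.2 ± 2.85), and these 3 did not overlap within 1 SD. Top2a was at 752.9, 728.3, 702.0, 708.0 and 721.7 CPM with DMSO, 665.1, 651.7, 646.3, 684.4 and 702.8 with DSHN, 540.1, 530.8, 544.3, 601.6 and 562.8 with GW3965, and 477.5, 490.7, 438.8, 457.7 and 459.9 in the combination. DSHN replicate 5 reached DMSO replicate 3, and otherwise the 4 groups followed each other without overlap. The Top2a change was -0.38 ± 0.04 with GW3965 (adjusted p = 3.52e-09), -0.11 ± 0.04 with DSHN (0.025) and -0.64 ± 0.04 in the combination (9.78e-14), which was -0.49 with the length trend removed. Mki67 (GeneID 17345, chromosome 7, 135291513 to 135318286, minus strand), the Ki-67 protein that coats mitotic chromosomes, was at 844.0, 843.8, 785.0, 798.9 and 790.1 CPM with DMSO, 761.7, 751.4, 725.8, 803.8 and 887.1 with DSHN, 657.6, 650.7, 649.4, 709.8 and 651.4 with GW3965, and 498.0, 499.6, 492.8, 515.7 and 549.4 in the combination. Both groups with GW3965 were below all others, and they did not overlap each other. Mki67 fell by 0.29 with GW3965 (5.07e-06), and its change of -0.38 in the combination against GW3965 (6.37e-08) was -0.12 and still called with the length trend removed. The condensin genes fell with GW3965 by 0.45 (Smc2), 0.29 (Smc4), 0.45 (Ncapg) and 0.22 (Ncapd2). In the combination against GW3965 they parted: Smc4 rose by 0.34 (0.56 with the trend removed), Ncapd2 fell by 0.32 (0.17 with it removed), and Smc2 and Ncapg were at -0.05 and -0.04 and not called.

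**Figure D3:**
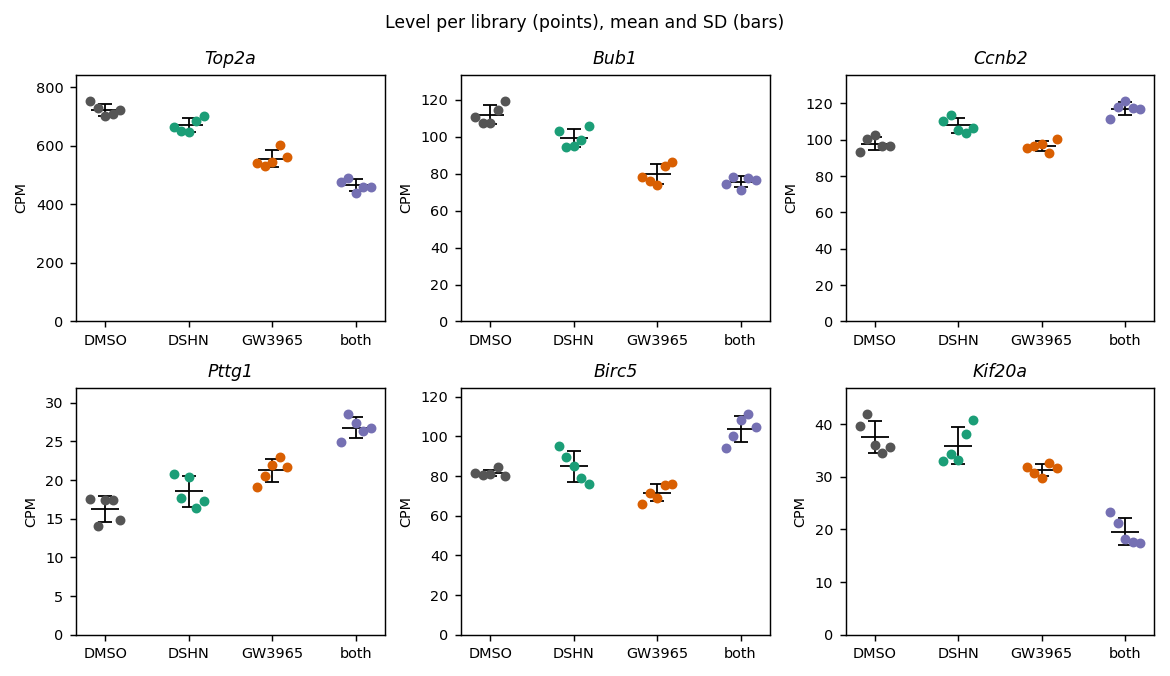
CPM (vertical axis, from 0) of 6 mitosis genes in each library (points) with mean and SD (bars), by treatment; both is the combination. Top2a and Bub1 are lower with GW3965, Ccnb2 is not, Pttg1 is higher, and in the combination the mean of Birc5 is above and that of Kif20a below the means of the other groups.

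When DSHN was added to GW3965, members were called in both directions, as were genes over the whole tested set. Against GW3965 alone, 13 were lower and 17 higher in the combination, beside 29.5% and 28.3% of tested genes, with a median of -0.002 and a range of -0.67 to 0.53 on the log2 scale. The members' lower share was close to that background. Which members were lower and which higher went with exon length. Of 21 members up to the median exon length of 3416 bases, 1 was lower and 15 were higher, and of 20 longer members 12 were lower and 2 higher. Over the 41 members the log2 change had a Pearson correlation of -0.64 with log2 exon length, and over all 13307 genes one of -0.47. All points come from the same 10 libraries, so these correlations describe those libraries. For GW3965 against DMSO the members' correlation was -0.28. With scaling by total counts only, calls over all genes were 3295 lower and 4637 higher in place of 3928 and 3760, and the members' 11 and 17.

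With the exon length trend removed, 12 members were lower and 15 higher than with GW3965 alone, beside 23.5% and 23.8% of tested genes, and the members' correlation with length was -0.21. Called lower both ways were 10 (Anln, Bub1b, Cdc25c, Kif11, Kif20a, Kif4, Mki67, Ncapd2, Prc1 and Top2a), and higher both ways 14 (Aurka, Birc5, Ccna2, Cdk1, Cenpa, Incenp, Mad2l1, Ndc80, Nuf2, Pttg1, Smc4, Spc24, Spc25 and Ube2c). Cenpe, Cenpf, Foxm1, Aurkb, Ccnb2 and Cdc20 were called only as counted. Called only with the trend removed were Ccnb1 (-0.16) and Plk1 (-0.13), which were lower, and Tpx2 (0.09), which was higher. Cdk1 and Smc4, named here after their values were seen, have exon lengths above the members' median and rose. Cdk1 was at 144.7, 142.4, 145.8, 152.9 and 160.2 CPM with DMSO, 148.5, 144.4, 131.8, 127.4 and 135.6 with DSHN, 100.5, 112.1, 114.2, 127.6 and 123.3 with GW3965, and 140.3, 157.2, 155.5, 163.1 and 155.9 in the combination. Smc4 was at 347.4, 348.7, 349.1, 352.6 and 361.2 CPM with DMSO, 364.0, 348.5, 355.7, 327.1 and 335.5 with DSHN, 251.5, 277.0, 295.1, 315.4 and 301.6 with GW3965, and 330.3, 347.7, 375.4, 386.2 and 381.2 in the combination. In both genes the GW3965 libraries were below all DMSO libraries and the combination libraries above all GW3965 libraries, overlapping DMSO. Cdk1 rose by 0.42 ± 0.05 against GW3965 (adjusted p = 3.27e-07) and by 0.49 with the trend removed.

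**Figure D4:**
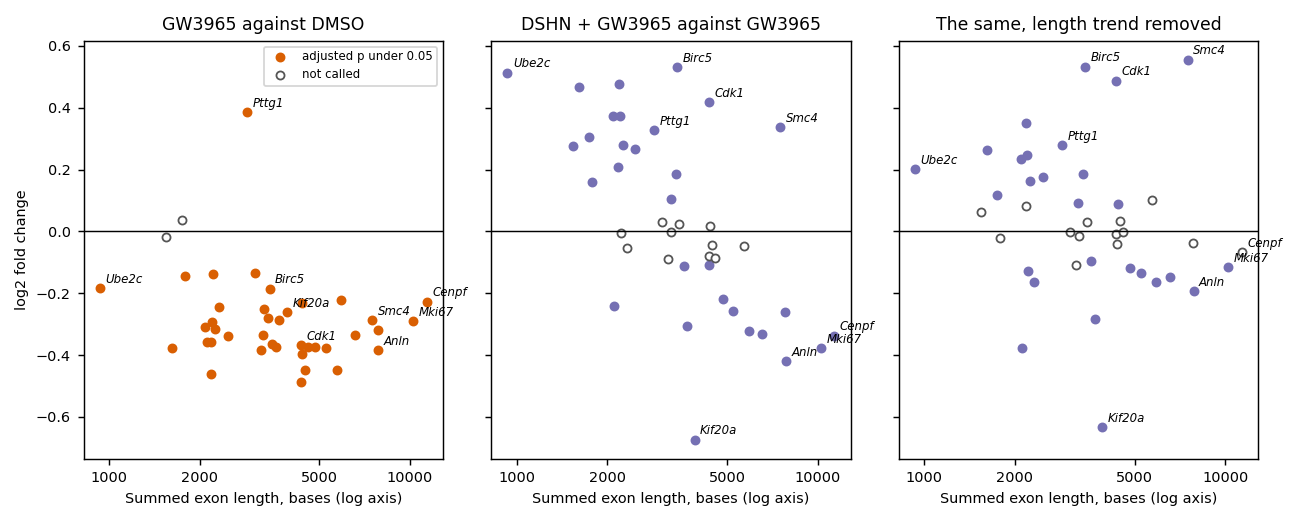
The log2 fold change (vertical axis) of the 41 members against summed exon length in bases (horizontal log axis), for GW3965 against DMSO, the combination against GW3965, and the latter with the length trend removed. The middle panel falls from Ube2c (931 bases, 0.51) to Mki67 (-0.38), while Kif20a stays at -0.67 and -0.63 in the middle and right panels.

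**Figure D5:**
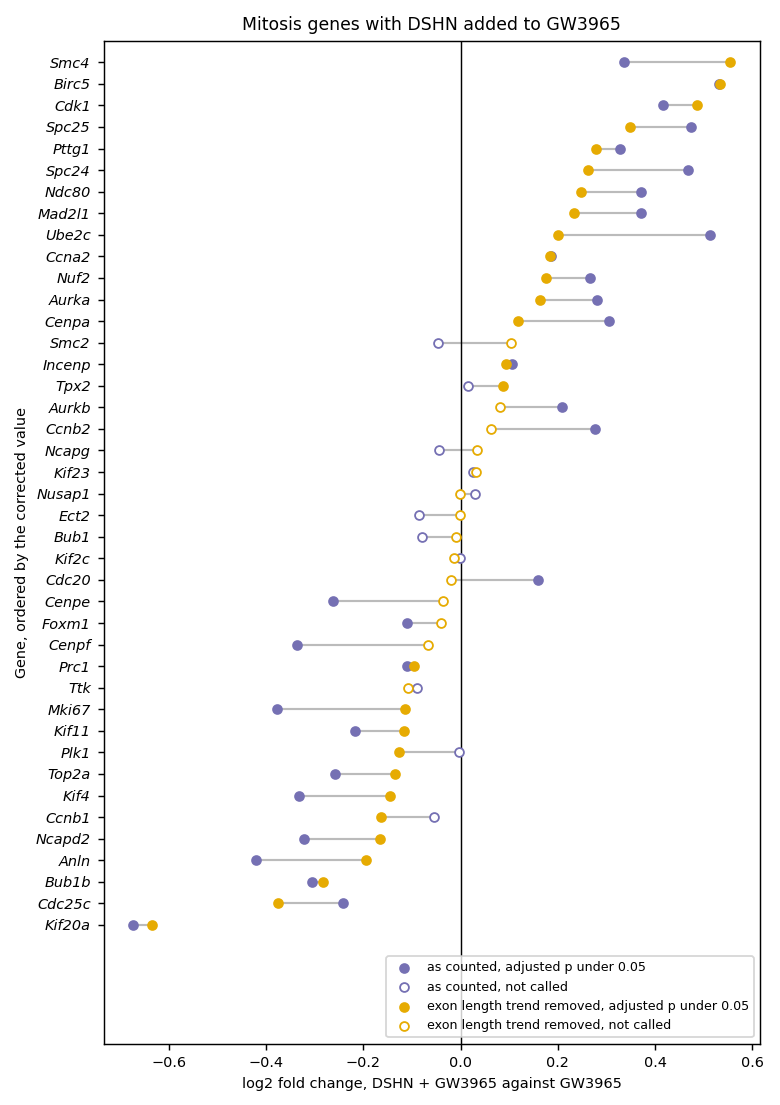
The log2 fold change in the combination against GW3965 for each of the 41 members as counted and with the exon length trend removed, joined by a line; filled points have an adjusted p under 0.05. Birc5 (0.53 both ways) and Kif20a (-0.67 and -0.63) hardly move, and Ccnb2 moves from 0.28 to 0.06.

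Against DSHN alone, 25 members were lower and 8 higher in the combination, beside 29.5% and 28.6% of tested genes. With the length trend removed there were 29 and 4, beside 22.9% and 23.5%. Of the 8 called higher, Birc5, Cdk1 and Pttg1 were called both ways. The test of whether DSHN acted differently in the presence of GW3965 (the interaction: its effect on top of GW3965 less its effect alone) called 10 members lower and 15 higher, beside 26.5% and 23.7% of tested genes, and 8 and 13 with the length trend removed, beside 22.6% and 21.5%. Called both ways were Bub1b, Cenpf, Kif20a and Ncapd2 on the lower side and 11 on the higher, among them Spc25 (0.61 ± 0.09, adjusted p = 4.21e-06), Cdk1 (0.53 ± 0.08, 2.64e-06), Birc5 (0.47 ± 0.08, 1.13e-05) and Mad2l1 (0.43 ± 0.08, 6.33e-05). With total counts only, calls over all genes were 2853 lower and 4069 higher in place of 3527 and 3154, and the members' 8 and 19.

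Other genes of the cell cycle were counted from separate lists, and their counts stand beside the same shares of all tested genes (23.0% lower and 23.6% higher with GW3965, 14.8% and 14.1% with DSHN). Of 69 further genes of G2 and M phase, 64 fell and 1 rose with GW3965 (median log2 change -0.34), and 12 fell and 2 rose with DSHN. Ncapd3, a condensin subunit, fell by 0.59 and Kif15, a spindle kinesin, by 0.49 with GW3965. Of 50 DNA replication genes, 47 fell with GW3965 (median -0.58) and 40 with DSHN (median -0.27), where the 41 mitosis genes stood at -0.32 and -0.04. Timeless, of the replication fork, changed by -0.98 with GW3965 and -0.47 with DSHN, and Mcm7, of the replicative helicase, by -0.56 and -0.26. The test of a difference in DSHN effect called 47 of the 50 replication genes higher and 2 lower, beside 23.7% and 26.5% of tested genes. With the length trend removed it called 44 and 0, beside 21.5% and 22.6%. Of 11 cyclins and kinases of G1, 10 fell with GW3965 and 9 with DSHN, led by Ccnd1, the cyclin that growth factors induce, at -1.65 and -1.07. Ccne2 and Ccne1, the E cyclins of S phase entry, changed by -1.17 and -1.05 with GW3965.

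Lists of cell cycle regulators were counted as well. Of 18 E2F, DREAM and MuvB genes, 13 fell and 1 rose with GW3965, among them Rbl1, a pocket protein of DREAM (-0.65), and the repressors E2f8 (-0.83) and E2f7 (-0.78). Of the 3 NF-Y genes, whose product binds CCAAT boxes, Nfya (-0.31) and Nfyb (-0.30) fell with GW3965 and Nfyc did not pass the test. The 7 inhibitors of cyclin-dependent kinases divided into 4 that fell and 3 that rose. Cdkn1a, which encodes p21, fell by 0.29, while Cdkn1b, which encodes p27, rose by 0.34. Of 12 p53 target and pathway genes, 5 fell and 5 rose. The median changes of these 2 lists were -0.17 and -0.07, beside 0.01 over all tested genes. Among 16 core subunits and enzymes of the anaphase-promoting complex, which are not confined to dividing cells, 4 fell and 2 rose with GW3965 and none was called with DSHN. The shares that fell and rose were close to or below those of all tested genes and are no result about that list. Of 10 cohesin genes, 6 fell and 2 rose with GW3965. In the combination against GW3965, 8 were lower and none higher as counted, beside 29.5% and 28.3% of tested genes. With the length trend removed, 5 were lower and 2 higher, beside 23.5% and 23.8%.

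In some libraries most members lay on the same side of their group mean, most of all with GW3965. In GW3965 replicate 4, 38 of 41 members were above their group mean (median 0.09 on the log2 scale), and in GW3965 replicate 2 there were 4 (median -0.05). In the other 18 libraries the number ran from 7 (GW3965 replicate 1) to 32 (DSHN replicate 1). The share of all tested genes above their group mean was not computed. Whether this is particular to the members is therefore not known. Leaving out any 1 library, GW3965 replicate 4 included, gave 38 members lower and 1 higher with GW3965 in every case.

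For 13 members some exon bases lie in exons of another gene, mostly on the opposite strand, from 1.2% in Smc4 to 66.4% in Kif20a. The share was 30.7% in Ncapg (Lcorl), 14.2% in Kif4 and 11.2% in Ccna2 (Exosc9). This counting did not use strand and left out reads that also overlapped another gene's exon. These members were thus counted from fewer bases than their exon length. The pseudogenes Ccnb1-ps and Kif4-ps had 1 to 8 and 0 to 1 counts per library.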

How the data were processed

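Stranded mRNA libraries of 20 macrophage cultures were made with a Kapa kit, as the labels' protocols state. STAR aligned the reads, per the submitters' processing notes, and they were counted per gene with featureCounts 2.0.0 on RefSeq annotation of GRCm39, per the file headers, with no option for strand, multi-mapped or overlapping reads. The authors deposited unnormalised counts, and exon lengths are those of the files. GeneIDs were named for 44749 of 46318 genes, and unnamed ones held 0.474% of counts.

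Counts were fitted with edgeR 4.0.16 (R 4.3.3) by quasi-likelihood, with TMM scaling, filterByExpr (13307 genes) and 1 mean per treatment over all 20 libraries. Each of 6 contrasts had its own Benjamini-Hochberg adjustment, and genes were called under an adjusted p of 0.05. The exon length correction adds per-library offsets from a natural spline (5 degrees of freedom) on log2 exon length. RPKM is CPM per kilobase of exon. The members and lists were chosen with earlier results of these data known. Values per library are given for the member of each role with the smallest adjusted p for GW3965 against DMSO and for the combination against GW3965, and for the longest and shortest. Other genes named come from pathway lists, by smallest adjusted p with GW3965.

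Replicates varied beyond counting error (chi-square per degree of freedom 2.37 to 12.3 over 40 pairs; biological coefficient of variation 0.0536). Alternatives were DESeq2 1.42.0, its size factors in edgeR, scaling by library totals, all genes with a count, only genes with 1 CPM in 5 libraries and at least 100 counts, limma 3.58.1 voom, only the groups compared, a replicate block, a correction that adds genomic span, and leaving out each library. The fit was tested on simulated counts. For GW3965 against DMSO (13177 genes) 37 of 50 genes with a 1.25-fold change and 40 of 50 with a 1.5-fold change were found, beside 13 false calls. For the combination against DMSO (13205 genes) with a simulated length trend, there were 2869 false calls before the correction and 7 after it. The simulated trend was linear in log2 exon length, the same quantity the correction uses, and all genes varied alike between replicates. These figures therefore do not show how well the correction works on the real counts. A further marker list is not reported here.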

Additional observations from a re-analysis of the deposited data

Results flagged for a closer look

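In 25 members the DSHN effect differed with and without GW3965 by edgeR's interaction test, and the values are log2 differences. Of all tested genes, 26.5% were called lower and 23.7% higher in that test, and the members' lower share was no larger than that. Higher with GW3965 present were Spc25 (0.607), Spc24 (0.592), Cdk1 (0.533), Ube2c (0.494), Birc5 (0.471), Mad2l1 (0.434), Ndc80 (0.409), Smc4 (0.36), Aurka (0.353), Nuf2 (0.306), Aurkb (0.254), Ccna2 (0.205), Cenpa (0.172), Incenp (0.146) and Ccnb2 (0.136). Lower were Kif20a (-0.604), Cenpf (-0.397), Ncapd2 (-0.363), Mki67 (-0.329), Anln (-0.299), Bub1b (-0.295), Cenpe (-0.242), Kif4 (-0.225), Top2a (-0.149) and Kif11 (-0.144). With the exon length trend removed, 11 of the 15 and 4 of the 10 were still called in the same direction.

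In 10 of 176 sets of 5 libraries, a library stood far from the other 4, and chance gives about 1 in 20. With GW3965, replicate 4 was the high library for Mki67 (709.8 CPM), Kif23 (110.0 CPM), Ect2 (99.05 CPM) and Kif4 (54.32 CPM). With DMSO, replicate 1 was low for Aurkb (62.03 CPM) and Ube2c (100.8 CPM), and replicate 3 stood apart for Tpx2 (191.5 CPM). In the combination, replicate 5 was high for Cenpf (116.0 CPM) and replicate 3 low for Anln (102.8 CPM). With DSHN, replicate 3 was low for Ttk (32.01 CPM).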

How the results depend on the processing

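With GW3965 against DMSO, 38 members were lower and 1 higher under every alternative run, leaving out each library included. With DSHN against DMSO, 2 members were lower with no filter and 2 higher with total counts only, and leaving out each library gave 2 to 7 lower and 2 to 4 higher. In the combination against DSHN, 4 members were higher, in place of 8, under the exon length correction, under that with genomic span and under that with the replicate block. The labels do not say what a replicate number stands for, and in no pair of groups did every same-numbered pair of libraries pass a correlation of 0.1, the limit used to treat the numbers as a pairing. The correlations ran from 0.084 to 0.166 for DMSO and GW3965, 0.043 to 0.119 for DMSO and the combination, 0.027 to 0.247 for GW3965 and the combination, and -0.205 to 0.147 for DSHN and any other group. The replicate block alone gave 6 lower and 3 higher with DSHN, 38 and 1 with GW3965, 27 and 5 in the combination. Reversals, meaning a change of sign where either fit called the gene, occurred only under the length corrections. Under the exon length correction alone, only Ccnb2 against DSHN was called in both directions. Cdc20 against DMSO was called only after that correction. Ube2c against DMSO and DSHN, Cdc20 against GW3965 and Ccnb2 in the interaction were called only before it. Against DMSO, Cdc20 changed by -0.177, -0.207 (with genomic span) and -0.177 (with the replicate block), Ube2c by -0.034, -0.055 and -0.034, and Mad2l1 by -0.114 with genomic span. Against GW3965, Cdc20 was at -0.020, -0.046 and -0.021, and Smc2 at 0.118 with genomic span. Against DSHN, Ccnb2 was at -0.098 under all 3, Ube2c at -0.010, -0.033 and -0.011, and Spc24 at -0.018 with genomic span. In the interaction, Ccnb2 was at -0.058, -0.067 and -0.058, and with genomic span Cenpa was at -0.027 and Kif4 at 0.033. These corrections remove any trend with length, so a change that goes with length is removed too. The lowest member count in a library was 203, and replicates varied beyond counting error.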
